A study of Mus musculus with 8 samples.

Results

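Imiquimod (IMQ), an agonist of the innate RNA sensor TLR7, was given to tumor-bearing mice in phospholipid-free small unilamellar vesicles (PFSUV), and the RNA of whole tumors was sequenced. The 10 genes described here encode enzymes of arginine, tryptophan and itaconate metabolism that act in immunity or in the liver: Nos2, Arg1, Arg2, Ass1, Gch1, Ido1, Ido2, Tdo2, Kynu and Acod1. They were chosen by gene symbol from the 55536 counted genes, and all 10 were matched. HCA-1 cells, a mouse hepatocellular carcinoma line, had been implanted orthotopically in the liver of male C3H mice, aged 6 to 8 weeks by the sample labels. The study's methods give a younger age, stated for the mice as purchased. In the PFSUV-IMQ group, 4 mice received a single intravenous dose on day 17, and in the control group 4 mice received saline, so that the vesicle and its IMQ cannot be told apart. Tumors were taken after 3 h. They are numbered 1, 2, 3 and 4 in the PFSUV-IMQ group and 1, 3, 4 and 5 in the control group, and the p values below reflect the spread between these tumors. Each library is of a whole tumor, in which HCA-1 cells, host liver and host immune cells can be mixed. Fewer cells of a type and less RNA per cell thus cannot be told apart. Whether RNA of hepatocyte genes came from host liver or from HCA-1 cells was not tested.

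Arginine is used by enzymes with opposed roles. Inducible nitric oxide synthase, the product of Nos2, turns it into nitric oxide and needs tetrahydrobiopterin, whose synthesis starts at the enzyme encoded by Gch1. Arginases split arginine into ornithine and urea, Arg1 in the cytosol as the last step of the hepatic urea cycle and Arg2 in mitochondria, and Ass1 takes part in rebuilding arginine from citrulline. Tryptophan enters the kynurenine pathway through Tdo2, which is abundant in hepatocytes, or through Ido1 and Ido2, and Kynu acts further down the pathway. Ido1 is known as an interferon-induced enzyme that depletes tryptophan. Acod1, also called Irg1, makes itaconate from the citrate cycle intermediate cis-aconitate in activated macrophages.

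Total counts were 16883911 to 27687756 per control tumor and 17008151 to 18527613 per PFSUV-IMQ tumor, and a gene with 3 counts had a level of 0.108 to 0.178 CPM, a limit that covers counting error only. CPM is a gene's count relative to its library's total, here with libraries scaled by the TMM method. A gene was called when its adjusted p was under 0.05 in edgeR's quasi-likelihood test and its log2 fold change was over 1 or below -1. Of the 15998 genes tested, 362 (2.26%) were called higher and 32 (0.200%) lower in PFSUV-IMQ tumors. The 20 hepatocyte markers were found in every tumor, but at very unequal levels. Their summed level was 6013 to 45469 CPM in controls and 8888 to 49124 CPM after PFSUV-IMQ. The albumin gene Alb was highest in control tumor 4 (22446 CPM) and PFSUV-IMQ tumor 2 (22736 CPM) and at or under 9027 CPM in the other 6 tumors.

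The 10 enzymes fell into distinct patterns. Nos2, Acod1, Ido1 and Gch1 rose after PFSUV-IMQ, by 16.3-, 14.1-, 7.26- and 2.49-fold, and for all 4 the lowest PFSUV-IMQ tumor was above the highest control tumor. Arg1, Ass1, Tdo2, Kynu and Ido2 differed by several-fold between tumors of the same group, and their levels followed Alb. Arg2 was low, at 11 to 31 counts per tumor. In counts, 4 of the 10 enzymes were called higher, against 2.26% of all tested genes, and 0 were called lower, against 0.200%. The groups were apart, with PFSUV-IMQ tumors higher, in the same 4 enzymes, against 6.00% of tested genes. In no enzyme were they apart in the other direction, which held for 3.28% of tested genes. Of the 6 enzymes that were not called, 3 had higher and 3 lower estimates, none had an unadjusted p under 0.05, and the Wald test of DESeq2 called none of them either. The members were chosen with earlier results of these data known, so these counts describe the enzymes and do not test them as a set.

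**Figure D1:**
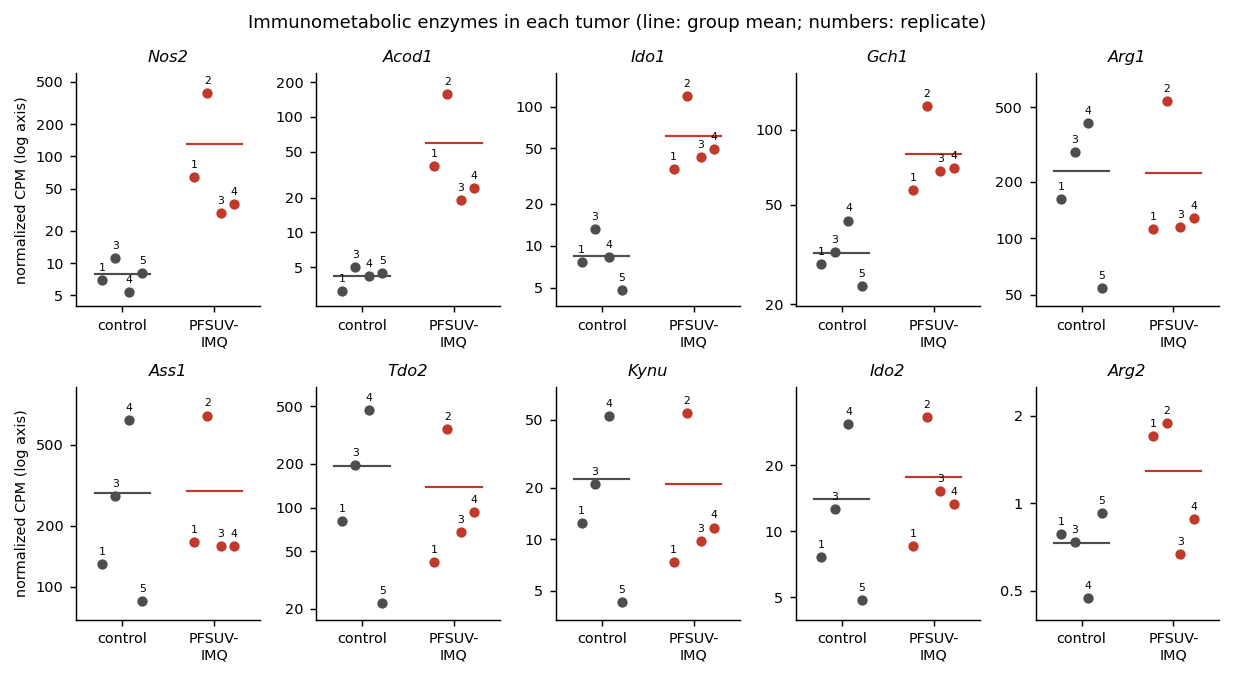
Normalized CPM of the 10 enzymes in each tumor, on log axes that differ between panels. Points are single tumors with their replicate numbers, gray for control and red for PFSUV-IMQ, and lines are group means. The groups do not overlap for Nos2, Acod1, Ido1 and Gch1 and overlap for the other 6 enzymes, and PFSUV-IMQ tumor 2 is the highest of its group in all 10 panels.

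Nos2 (ENSMUSG00000020826, chromosome 11 of GRCm38, 78920787 to 78960254, plus strand) was at 7.005, 11.1, 5.41 and 8.09 CPM in control tumors 1, 3, 4 and 5. In PFSUV-IMQ tumors 1 to 4 it was at 64.4, 388, 29.3 and 35.7 CPM. The lowest PFSUV-IMQ tumor was thus above the highest control tumor, and tumor 2 stood far above the other 3 of its group. Mean levels were 7.90 ± 2.40 CPM in controls and 129 ± 173 CPM after PFSUV-IMQ (SD, n = 4 each). This was a log2 fold change of 4.03, with a standard error of 0.85 (edgeR adjusted p = 0.0389). Without PFSUV-IMQ tumor 2 the log2 fold change was 2.43 and Nos2 stayed called. Its call was lost when any control tumor was left out, with adjusted p values of 0.0864 to 0.129.

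Gch1 (ENSMUSG00000037580, chromosome 14, 47153895 to 47189413, minus strand), which encodes GTP cyclohydrolase 1, the first enzyme of tetrahydrobiopterin synthesis, was already well expressed in controls. It had 29.0, 32.3, 43.3 and 23.7 CPM in control tumors 1, 3, 4 and 5 and 57.2, 124, 68.4 and 70.2 CPM in PFSUV-IMQ tumors 1 to 4. The groups were apart, but by a smaller step than for Nos2. The mean rose from 32.04 ± 8.27 to 79.9 ± 29.8 CPM (SD, n = 4 each). This was a log2 fold change of 1.32, with a standard error of 0.28 (edgeR adjusted p = 0.0388). Its call rested on few tumors, since leaving out 1 tumor ended it in 5 of 8 cases (control tumors 1, 3 and 5 and PFSUV-IMQ tumors 3 and 4), with log2 fold changes between 1.01 and 1.49 over the 8 cases. Gch1 was highest of its group in the same 2 tumors that were highest in Alb.

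Acod1 (ENSMUSG00000022126, chromosome 14, 103046977 to 103056573, plus strand) had the narrowest range among controls of the 4 enzymes that rose, 1.63-fold. Control tumors 1, 3, 4 and 5 had 3.09, 5.02, 4.21 and 4.45 CPM, and PFSUV-IMQ tumors 1 to 4 had 37.6, 157, 19.1 and 24.1 CPM. As for Nos2, tumor 2 was highest after PFSUV-IMQ, then tumor 1, and tumors 4 and 3 were lowest. The mean rose from 4.19 ± 0.813 to 59.4 ± 65.3 CPM (SD, n = 4 each). This was a log2 fold change of 3.82, with a standard error of 0.68 (edgeR adjusted p = 0.0176). Without PFSUV-IMQ tumor 2 the log2 fold change was 2.66. The call was lost without control tumor 1, 3 or 4, with adjusted p values of 0.0765, 0.0654 and 0.0586. After subtraction of the group means from log2 CPM, Acod1 and Nos2 had a Pearson correlation of 0.974 over the 8 tumors, given as a description since the libraries also share depth and composition.

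Ido1 (ENSMUSG00000031551, chromosome 8, 24584136 to 24597009, minus strand) was at 7.65, 13.2, 8.25 and 4.78 CPM in control tumors 1, 3, 4 and 5. After PFSUV-IMQ it was at 35.6, 118, 43.5 and 49.6 CPM in tumors 1 to 4. The groups were apart, and tumors 1, 3 and 4 of the PFSUV-IMQ group were closer to each other than for Nos2 or Acod1. The mean rose from 8.47 ± 3.50 to 61.8 ± 38.2 CPM (SD, n = 4 each). This was a log2 fold change of 2.86, with a standard error of 0.45 (edgeR adjusted p = 0.00957). Of the 4 enzymes that rose, Ido1 alone kept its call whichever of the 8 tumors was left out, with log2 fold changes of 2.32 to 3.16. It was also the only member called when the test itself required a log2 fold change over 1 (glmTreat), where the adjusted p was 0.127 for Nos2, 0.0611 for Acod1 and 1 for Gch1.

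The sequences upstream of Acod1 and Gch1 are shown as the promoters of 2 enzymes that rose, and that of Tdo2 for comparison with an enzyme that followed Alb. RefSeq entries (GRCm38.p6) were matched for Acod1, Ass1, Gch1 and Tdo2. Each sequence is the 250 bases before the RefSeq start, 5′ to 3′ on the strand of the gene, with matches to the searched motifs in capitals.
Acod1, chr14:103046762-103047011, plus strand: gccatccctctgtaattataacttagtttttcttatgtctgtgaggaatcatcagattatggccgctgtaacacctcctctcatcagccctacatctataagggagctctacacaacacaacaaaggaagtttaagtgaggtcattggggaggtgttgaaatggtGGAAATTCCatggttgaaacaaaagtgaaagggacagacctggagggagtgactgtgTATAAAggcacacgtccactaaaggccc
Gch1, chr14:47189414-47189663, minus strand: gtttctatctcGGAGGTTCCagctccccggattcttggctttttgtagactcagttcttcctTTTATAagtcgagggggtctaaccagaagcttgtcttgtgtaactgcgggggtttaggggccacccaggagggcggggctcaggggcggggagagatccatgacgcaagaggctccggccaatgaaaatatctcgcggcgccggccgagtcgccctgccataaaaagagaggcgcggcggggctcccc
Tdo2, chr3:81975729-81975978, minus strand: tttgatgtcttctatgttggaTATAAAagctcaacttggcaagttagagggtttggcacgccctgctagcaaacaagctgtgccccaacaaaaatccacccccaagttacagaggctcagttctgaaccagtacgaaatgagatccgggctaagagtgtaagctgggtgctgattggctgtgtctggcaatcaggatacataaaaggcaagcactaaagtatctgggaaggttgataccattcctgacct
In Acod1 the capitals match an NF-kappaB motif (GGANNNTCC) at -85 to -77 from the start. They also match the letters of a TATA box (TATAAA) at -28 to -23. In Gch1 they match the NF-kappaB motif at -239 to -231 and the TATA box letters on the other strand at -188 to -183. In Tdo2 the match is to the TATA box letters at -229 to -224, and Ass1 had no match to any of the 6 motifs searched. The others were an ISRE core (GAAANNGAA) and a GAS element (TTCNNNGAA), both known from interferon-induced genes, an HNF4 motif (CAAAGTCCA) and a C/EBP motif (TTGCNNAA), searched on both strands, and they had no match in these 4 windows. No match overlapped another. Among 32817 promoters of the same length, the NF-kappaB motif was found in 7.26%, the TATA box in 12.4%, the ISRE core in 7.12%, the GAS element in 7.01%, the C/EBP motif in 9.57% and the HNF4 motif in 0.384%. The matches describe letters in these windows only, and the RefSeq starts of Acod1, Ass1 and Tdo2 differ from the gene starts in GENCODE.

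Among the enzymes that were not called, Arg1 (ENSMUSG00000019987, chromosome 10, 24915221 to 24927484, minus strand) had 162, 289, 411 and 54.0 CPM in control tumors 1, 3, 4 and 5 and 112, 542, 115 and 128 CPM in PFSUV-IMQ tumors 1 to 4. The ranges overlapped widely, and the spread within each group was 7.61-fold among controls and 4.84-fold after PFSUV-IMQ. The log2 fold change was -0.03, with a 95% interval of -1.55 to 1.49 (edgeR adjusted p = 0.992), an interval that holds changes of more than 1 log2 unit in either direction.

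Ass1 (ENSMUSG00000076441, chromosome 2, 31470207 to 31520672, plus strand), argininosuccinate synthase, was at 129.9, 279, 660.4 and 85.0 CPM in control tumors 1, 3, 4 and 5 and at 166, 695, 158 and 159 CPM in PFSUV-IMQ tumors 1 to 4. Control tumor 4 and PFSUV-IMQ tumor 2 were the highest, as for Arg1. Its log2 fold change was 0.03, with a 95% interval of -1.55 to 1.61 (edgeR adjusted p = 0.993). The predicted gene Gm5424 shares 55.3% of the 50-base words of Ass1, so reads could have been split or discarded, although Gm5424 itself had only 1 to 38 counts per tumor against at least 1566 for Ass1.

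Arg2 (ENSMUSG00000021125, chromosome 12, 79130777 to 79156301, plus strand) had 0.783, 0.738, 0.473 and 0.923 CPM in control tumors 1, 3, 4 and 5 and 1.71, 1.89, 0.669 and 0.882 CPM in PFSUV-IMQ tumors 1 to 4. These values rest on 11 to 31 counts per tumor. PFSUV-IMQ tumors 1 and 2 were above every control, while tumors 3 and 4 were within the control range. The log2 fold change was 0.81, with a 95% interval of -0.11 to 1.73 (edgeR adjusted p = 0.466). Exons of Vti1b and Gm48780 on the opposite strand overlap 28.1% of the exon bases of Arg2. Whether the counting used strand is not given in the sources used here, and if it did not, reads of these genes and of Arg2 cannot be told apart.

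Tdo2 (ENSMUSG00000028011, chromosome 3, 81957090 to 81976202, minus strand), tryptophan 2,3-dioxygenase of the liver, was the most variable of the 10 enzymes among the controls, with a 21.6-fold range. It had 80.3, 197, 469.6 and 21.8 CPM in control tumors 1, 3, 4 and 5 and 41.8, 348, 68.0 and 92.6 CPM in PFSUV-IMQ tumors 1 to 4. All PFSUV-IMQ values lay within the control range. The log2 fold change was -0.48, with a 95% interval of -2.47 to 1.5 (edgeR adjusted p = 0.898).

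Kynu (ENSMUSG00000026866, chromosome 2, 43555329 to 43682715, plus strand), which encodes kynureninase, had 12.4, 21.0, 52.5 and 4.29 CPM in control tumors 1, 3, 4 and 5. After PFSUV-IMQ it had 7.39, 55.1, 9.76 and 11.7 CPM in tumors 1 to 4, so the groups overlapped nearly in full. Its log2 fold change was -0.11, with a 95% interval of -1.91 to 1.70 (edgeR adjusted p = 0.977). Ido2 (ENSMUSG00000031549, chromosome 8, 24531892 to 24576333, minus strand), the neighbor of Ido1 on the same strand and a related enzyme, had 7.65, 12.6, 31.0 and 4.83 CPM in control tumors 1, 3, 4 and 5. In PFSUV-IMQ tumors 1 to 4 it had 8.55, 33.3, 15.3 and 13.3 CPM. The groups overlapped, unlike those of Ido1, and the log2 fold change was 0.33, with a 95% interval of -0.99 to 1.64 (edgeR adjusted p = 0.896).

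The level of each enzyme was then compared with that of Alb over the 8 tumors, to separate enzymes that rose from those that moved with this hepatocyte marker. Correlations were computed on log2 CPM for the 6 enzymes whose groups overlap, with exact two-sided permutation p values over all pairings, adjusted over these 6. Kynu followed Alb most closely, with a Pearson r of 0.994 and a Spearman rho of 1 (adjusted exact permutation p = 7.44e-05 and 1.49e-04). Before adjustment its p for r was 2.48e-05, the smallest that the pairings can give. Arg1 ranked the 8 tumors in the same order as Alb too, with r = 0.972 and rho = 1 and the same adjusted p values. For Tdo2, r was 0.968 and rho 0.952 (adjusted exact permutation p = 2.98e-04 and 0.00228). For Ass1, r was 0.962 and rho 0.786 (adjusted exact permutation p = 0.00167 and 0.0419).

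The correlation of Ido2 with Alb was looser. Its r was 0.895 (adjusted exact permutation p = 0.00518), but its rho of 0.714 did not pass (adjusted exact permutation p = 0.0691), and without control tumor 4 and PFSUV-IMQ tumor 2, the 2 tumors farthest from the median of Alb, its r was 0.598. Without the same 2 tumors r was 0.984 for Kynu, 0.976 for Arg1, 0.961 for Tdo2 and 0.800 for Ass1. Arg2 showed no relation to Alb, with r = -0.06 and rho = -0.17 (adjusted exact permutation p = 0.895 and 0.703). Values centered on their group means gave r of 0.995 for Kynu, 0.973 for Arg1, 0.972 for Ass1, 0.968 for Tdo2 and 0.957 for Ido2, so the relation was also present within groups. Many genes moved in this way, and 838 of 15997 other tested genes (5.24%) had an r of 0.9 or more with Alb. As high an r as that of Kynu was found in 2 other genes, and as high an r as that of Arg1 in 155.

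For the 4 enzymes that rose, the groups form separate clusters and no pooled correlation was read. Within groups, Gch1 also moved with Alb, with a group-centered r of 0.976, but with a shallow slope of 0.36 log2 CPM per log2 CPM of Alb. The slopes were 0.47 for Ido1, 0.51 for Acod1 and 0.55 for Nos2. They came with a looser group-centered r of 0.80, 0.61 and 0.52, in that order. Slopes were 0.82 for Ido2, 1.00 for Arg1, 0.99 for Ass1, 1.36 for Tdo2 and 1.2 for Kynu. In the plot of enzyme levels against Alb, control tumor 4 and PFSUV-IMQ tumor 2 had nearly the same Alb level, and Nos2 was at 5.41 CPM in the former and 388 CPM in the latter, its lowest control and its highest PFSUV-IMQ value. Control tumor 1 and PFSUV-IMQ tumor 4, at 7075 and 5479 CPM of Alb, were closer in Nos2, at 7.005 and 35.7 CPM.

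**Figure D2:**
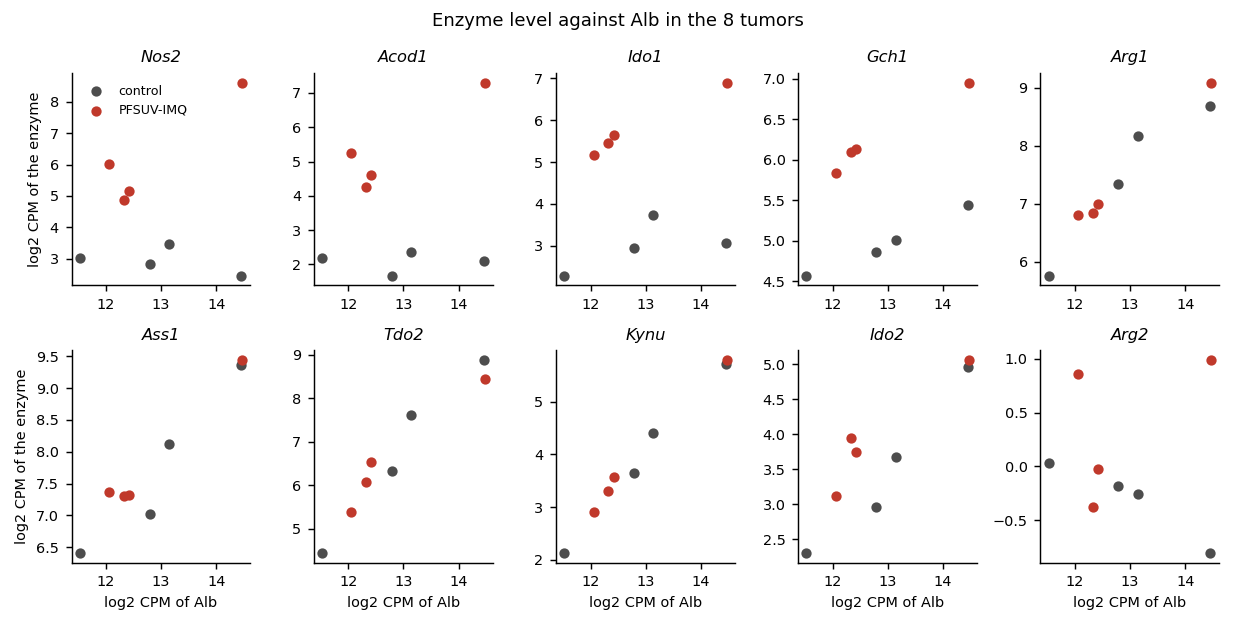
Log2 CPM of each enzyme (vertical axis) against log2 CPM of Alb (horizontal axis), with 1 point per tumor, gray for control and red for PFSUV-IMQ. Arg1, Ass1, Tdo2, Kynu and, less closely, Ido2 lie along a single rising line, the PFSUV-IMQ tumors lie above the controls for Nos2, Acod1, Ido1 and Gch1, and Arg2 shows neither pattern.

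The changes were recomputed with the hepatocyte score, the mean log2 CPM of the 20 hepatocyte markers, as a term in the fit. Nos2, Acod1, Ido1 and Gch1 stayed called, with log2 fold changes of 3.22, 3.29, 2.53 and 1.15 and edgeR adjusted p values of 0.0213, 0.00426, 2.6e-04 and 5.86e-04. They also stayed called without control tumor 4 and PFSUV-IMQ tumor 2, at 2.28, 2.66, 2.29 and 1.18, with adjusted p values of 0.0107, 0.00359, 0.0142 and 0.0161. With the score in the fit, the log2 fold change of Tdo2 was -0.76 (adjusted p = 0.0389, within the limit of 1 and so not called), and those of Arg1, Kynu and Ass1 were -0.43, -0.55 and -0.21. Alb, itself among the 20 markers, was at -0.53 in this fit (edgeR adjusted p = 0.149). These estimates are thus relative to the score and do not show a fall relative to Alb.

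**Figure D3:**
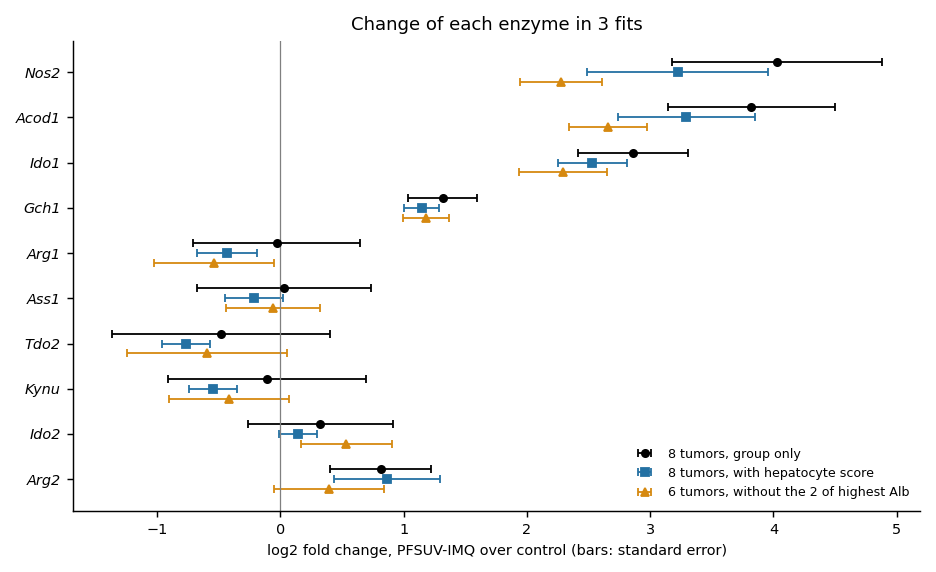
Log2 fold change of each enzyme, PFSUV-IMQ over control, from edgeR's quasi-likelihood fit, with bars for the standard error. Black circles are the fit of all 8 tumors, blue squares that fit with the hepatocyte score as a term, and orange triangles the fit without the 2 tumors of highest Alb. The estimates for Nos2, Acod1, Ido1 and Gch1 are above 1 in all 3 fits, and those of the other 6 enzymes lie between -1 and 1.

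Levels were compared between enzymes after division by exon length. In controls the order of mean CPM per kilobase was Ass1 (119.5), Arg1 (103), Tdo2 (49.5), Gch1 (5.13), Ido1 (4.64), Ido2 (3.86), Kynu (3.67), Nos2 (1.79), Acod1 (1.60) and Arg2 (0.511). Neighbors in this order overlapped in their ranges over tumors, apart from Acod1 and Arg2. After PFSUV-IMQ the order was Ass1 (122), Arg1 (101), Tdo2 (35.5), Ido1 (33.9), Nos2 (29.3), Acod1 (22.6), Gch1 (12.8), Ido2 (4.85), Kynu (3.42) and Arg2 (0.901), and every pair of neighbors overlapped. Without PFSUV-IMQ tumor 2 the middle of this order changed to Ido1 (23.5), Tdo2 (17.4), Gch1 (10.4), Acod1 (10.3) and Nos2 (9.78). Nos2 and Acod1 had thus stood below Kynu and Ido2 in controls and stood above them after PFSUV-IMQ, in mean CPM per kilobase, also without that tumor. The order of means did not hold in control tumor 5, alone among the controls. There Nos2 (1.83) and Acod1 (1.70) stood above Ido2 (1.33) and Kynu (0.70).

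Ratios of enzymes that share a substrate were computed within each tumor, which removes the library scaling. They are described without a test, since the enzymes had been chosen with results known. The log2 ratio of Nos2 to Arg1 was -4.53, -4.70, -6.25 and -2.74 in control tumors 1, 3, 4 and 5 and -0.80, -0.48, -1.97 and -1.84 in PFSUV-IMQ tumors 1 to 4. Arg1 thus exceeded Nos2 in CPM in all 8 tumors, by 6.68- to 75.9-fold in controls and by 1.40- to 3.91-fold after PFSUV-IMQ, and the ranges did not overlap. The log2 ratio of Ido1 to Tdo2 was -5.83 to -2.19 in controls and -1.56 to -0.23 after PFSUV-IMQ, also apart. The log2 ratio of Ido1 to Ido2 was -1.91 in control tumor 4 and between -0.02 and 0.06 in the other 3 controls, against 1.5 to 2.06 after PFSUV-IMQ.

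Gch1 was set against Gchfr, which encodes the feedback regulator that binds GTP cyclohydrolase 1. Gchfr had 15.8 ± 7.55 CPM in controls and 15.2 ± 7.16 CPM after PFSUV-IMQ (SD, n = 4 each), and the log2 ratio of Gch1 to Gchfr was 0.69 to 1.34 in controls and 2.13 to 2.81 after PFSUV-IMQ. Ratios of the liver enzymes to Alb overlapped between groups, with differences of group means of 0.10 for Arg1, 0.07 for Kynu, -0.05 for Tdo2, 0.28 for Ass1 and 0.66 for Ido2 on the log2 scale. Those of Ass1 to Asl, the next enzyme of arginine synthesis, and of Arg1 to Arg2 overlapped as well, with differences of -0.09 and -0.79.

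**Figure D4:**
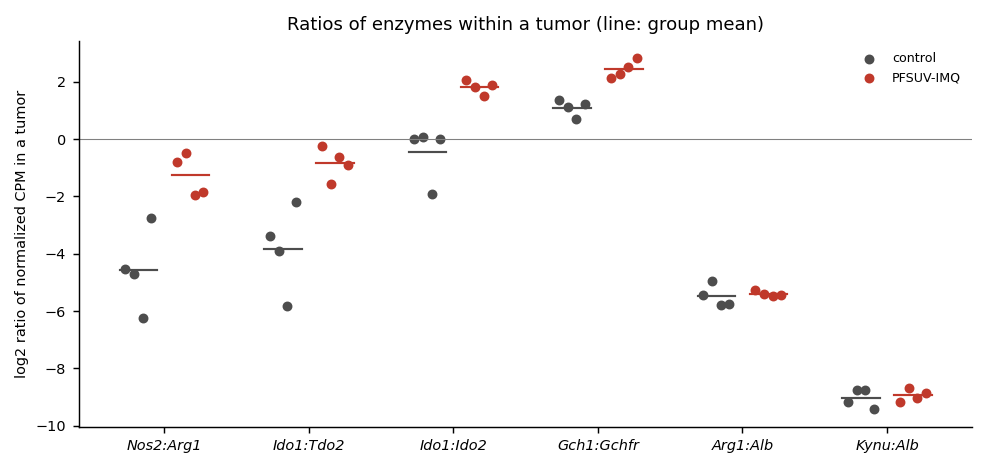
Log2 ratio of the CPM of 2 genes within each tumor, with 1 point per tumor, gray for control and red for PFSUV-IMQ, and lines for group means. The ratios of Nos2 to Arg1, Ido1 to Tdo2, Ido1 to Ido2 and Gch1 to Gchfr do not overlap between groups, and those of Arg1 and Kynu to Alb do.

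The rest of these pathways was read from 9 lists with 86 genes, of which 81 had enough counts to be tested. In edgeR's quasi-likelihood test 0 of the 81 were called, 11 had an unadjusted p under 0.05 (against 13.0% of all tested genes), 32 had higher and 49 lower estimates, and edgeR's exact test and DESeq2 each called 2, Nampt and Atf3, both higher. The median log2 fold change of all tested genes was -0.03. In 7 of the 81 genes every PFSUV-IMQ tumor was above every control tumor, which held for 6.00% of all tested genes, and in 0 was it below. No list is described as a set that moved, and the examples are the 1 or 2 genes per list whose estimates were largest in size unless said otherwise.

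On the arginine side, the list of arginine transport and nitric oxide synthesis had a median of 0.07 over 6 tested genes. Its largest estimates were in the arginine transporters Slc7a2 (0.72, adjusted p = 0.746) and Slc7a1 (0.68, adjusted p = 0.252). The urea cycle list had a median of 0.01 over 6 genes, with -0.75 for Nags, which makes the activator of the cycle's first enzyme, and 0.50 for that enzyme, Cps1. The ornithine and polyamine list had a median of -0.04 over 13 genes, with 0.64 for Oat, ornithine aminotransferase, and 0.57 for Sat1, which acetylates polyamines. Neither passed, at adjusted p values of 0.753 and 0.296, though the groups of Sat1 were apart. In the tetrahydrobiopterin list 6 of 7 estimates were below 0, with a median of -0.15, and the largest in size was -0.39 for Pts, the enzyme after Gch1. Gch1 was thus the only gene of tetrahydrobiopterin synthesis and use called by this test, among the 8 that were listed and tested.

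On the tryptophan side, the list from kynurenine to NAD had a median of -0.12 over 12 genes. Nampt, which salvages nicotinamide for NAD synthesis, had 131 ± 41.3 CPM in controls and 305 ± 158 CPM after PFSUV-IMQ (SD, n = 4 each). Its groups were apart, with a log2 fold change of 1.22, and it was not called (edgeR adjusted p = 0.147). Afmid, which acts right after Ido1 and Tdo2, had -0.58 (adjusted p = 0.513). The list of other tryptophan users and transporters had a median of 0.38 over 8 genes. In it Wars, the tryptophanyl-tRNA synthetase, had 69.5 ± 5.10 CPM in controls and 117 ± 21.7 CPM after PFSUV-IMQ (SD, n = 4 each), for a log2 fold change of 0.75 that passed the p threshold (edgeR adjusted p = 0.0477) but not the fold limit. Ddc, which makes serotonin and dopamine from their precursors, had -0.93 (adjusted p = 0.777). Among tested genes of the aryl hydrocarbon receptor, which kynurenine can activate, the median was 0.06, with 0.54 for the target gene Tiparp and -0.41 for the receptor gene Ahr. The target gene Cyp1a1 was too low to be tested, at no more than 0.301 CPM in any tumor. Also too low to be tested was the amino acid transporter gene Slc6a19, named after its values were seen, at 0 to 0.176 CPM in controls and 0.441 to 1.89 CPM after PFSUV-IMQ.

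On the itaconate side, all 15 genes of the list of itaconate and the citrate cycle had estimates below 0, with a median of -0.14, also under the other scalings tried. Of all 15998 tested genes, 8637 had estimates below 0. With 1 tumor left out, Sdhc, Sdhd, Slc25a1, Sucla2 and Suclg2 rose above 0 in at least 1 fit. In the list 0 genes had an unadjusted p under 0.05 or a call by the exact test or DESeq2. The largest in size were -0.65 for Idh1 and -0.45 for Suclg1 (adjusted p = 0.659 and 0.555). The itaconate response list includes genes of proteins that itaconate acts on, so it is not a list of genes whose RNA is known to respond. It had a median of 0.78 over 9 tested genes, with 6 estimates above 0 and 3 below. Of these genes, 5 had an unadjusted p under 0.05, which held for 13.0% of all tested genes. The list was written with earlier results known, and a response to itaconate was not tested. Atf3, a stress-induced transcription factor, had a log2 fold change of 1.17, and Tet2, an enzyme of DNA demethylation that itaconate inhibits, one of 0.98 (edgeR adjusted p = 0.0869 and 0.0583). Keap1, named here after its values were seen, encodes the sensor that itaconate modifies and had 52.2 ± 4.73 CPM in controls and 96.6 ± 20.4 CPM after PFSUV-IMQ (SD, n = 4 each), for a log2 fold change of 0.89 (edgeR adjusted p = 0.029), within the fold limit. Known targets of the transcription factor that Keap1 restrains, also named after their values were seen, did not share a direction. Hmox1, heme oxygenase, had 0.78 (adjusted p = 0.154), with the groups apart, and the cystine transporter gene Slc7a11 had 0.56 (adjusted p = 0.439), while Nqo1, Gclm and Txnrd1 had -0.21, -0.49 and -0.06. The gene of the itaconate receptor, Oxgr1, had no count in any tumor.

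**Figure D5:**
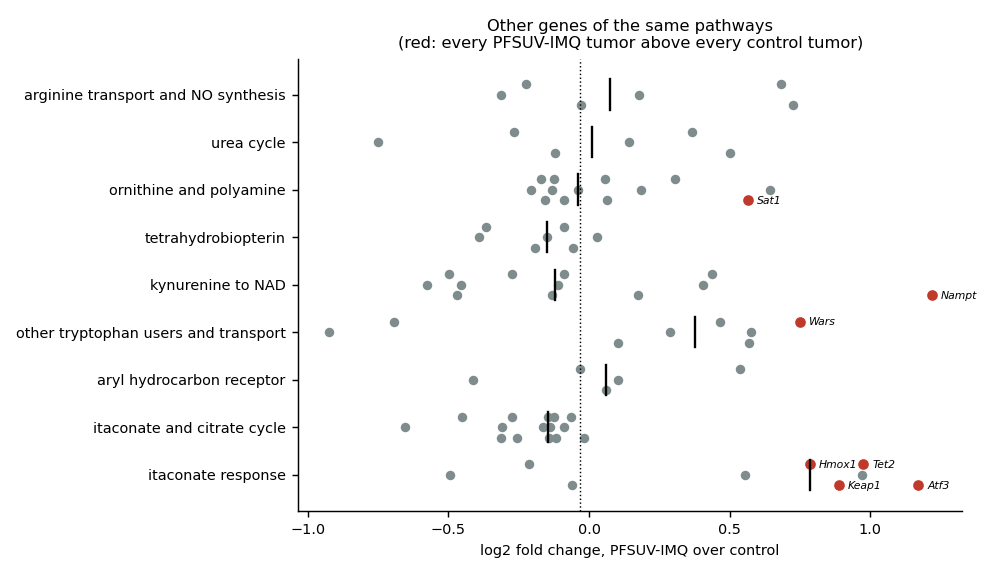
Log2 fold change, PFSUV-IMQ over control, of the 81 tested genes in the 9 pathway lists, with 1 point per gene, a black bar for the median of each list and a dotted line for the median of all tested genes (-0.03). Red points with names are the 7 genes in which every PFSUV-IMQ tumor was above every control tumor, and the vertical offset within a list has no meaning.

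Markers of the cells in which these enzymes are known were read beside them. The monocyte and macrophage markers summed to 1375 to 2343 CPM in controls and 1036 to 2220 CPM after PFSUV-IMQ, with overlapping groups. A large part of the sum was Lyz2, with means of 1064 CPM in controls and 875 CPM after PFSUV-IMQ. Of these 12 markers, 5 had estimates above 0 and 7 below. The Fc receptor gene Fcgr1 was called higher (log2 fold change 1.32) and the chemokine receptor gene Cx3cr1 lower (-2.81). Ly6c2 (1.88) and Ccr2 (-1.23) were not called by the quasi-likelihood test, but edgeR's exact test and DESeq2 called Ly6c2 higher and Ccr2 lower. The Kupffer cell markers summed to 69.1 to 174 CPM in controls and 48.4 to 87.3 CPM after PFSUV-IMQ, and Vsig4 was called lower (-1.62) out of 5. The neutrophil markers summed to 18.02 to 64.8 CPM and 35.0 to 157 CPM, with all 6 tested estimates above 0 and 2 with an unadjusted p under 0.05. None of the 6 was called by edgeR's quasi-likelihood test, its exact test or DESeq2. Within the PFSUV-IMQ group their sum was highest in tumor 2. The sums of the hepatocyte, monocyte and macrophage, dendritic cell and Kupffer cell markers were also highest of the group there, as were all 10 enzymes. Without that tumor and control tumor 4, only 3 of the 6 neutrophil estimates were above 0. The dendritic cell markers summed to 168 to 226 CPM and 342 to 547 CPM, of which the interferon-induced Bst2, called higher (1.90), made up 261 to 455 CPM after PFSUV-IMQ. Of the 10 dendritic cell markers, 5 had estimates above 0 and 5 below, among the latter Flt3 (-1.14), Siglech (-1.11) and Xcr1 (-0.84). Only Bst2 was called by the quasi-likelihood test, and DESeq2 also called Flt3 lower. No marker of these lists was at 0 in all tumors. The part of these cells in the rise of the 4 enzymes was not tested.

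In the interferon and NF-kappaB reference list, 5 of 11 tested genes were called higher, Irf7, Isg15 and Ifit1 among them, and the summed level was 703 to 1008 CPM in controls and 3548 to 7807 CPM after PFSUV-IMQ. Their part in the rise of the 4 enzymes was not tested. The cytokine genes Ifng, Tnf and Il1b, named here after their values were seen, were not called, with log2 fold changes of 0.62, 1.13 and -0.66 (edgeR adjusted p = 0.629, 0.449 and 0.446).

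For each enzyme, the 3 tested genes with the most similar log2 CPM over the 8 tumors were found by Pearson r, as a description. Where the groups of an enzyme were apart, as for Nos2, Acod1, Ido1 and Gch1, this r includes the difference between the groups. Genes that differ between the groups in the same direction can then rank high for that alone. For Nos2 they were Bid (0.992), Cd69 (0.990) and Il12rb1 (0.988), and for Acod1 Myd88 (0.991), Mxd1 (0.990) and Gipr (0.990). For Ido1 they were Gbp5 (0.997), Gm7609 (0.997) and Zbp1 (0.995), all called higher, and for Gch1 Nmi (0.997), Ppa1 (0.993) and Arhgef26 (0.993). The genes nearest to the enzymes that followed Alb included Hgd, of tyrosine breakdown, and Serpinc1, the gene of antithrombin. For Tdo2 they were Slc27a2 (0.998), Ugt2b34 (0.997) and Slc38a4 (0.997), and for Kynu Me1 (0.999), Serpinc1 (0.998) and Enpep (0.997). For Arg1 they were Enpep, Scd1 and Gbe1 (0.986 to 0.988), for Ass1 Gls2, Urah and Acacb (0.992 to 0.995), and for Ido2 Arhgap32, Hgd and Slc35d1 (0.996 to 0.997). Arg2 was nearest to Sik1, Psmf1 and Zranb3 (0.965 to 0.971), on few counts.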

How the data were processed

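RNA of 4 PFSUV-IMQ and 4 control tumors was analysed from counts per gene. The study's methods state alignment with TopHat and counting with HTSeq, whereas the submitters' processing notes list Trimmomatic 0.38, HISAT2 2.1.0 and featureCounts 2.0.0, so the steps used cannot be told from these sources. Genome build, strand setting and treatment of reads with several matches are not given in the sources used here. The authors deposited whole-number counts for 55536 genes, which were the input of every test. They also deposited a table of signal values, counts divided by a DESeq2 size factor per tumor (largest relative departure from a single factor 5.4e-10), with 36670 genes, used here only for gene symbols. All identifiers are in GENCODE M21 (GRCm38), the source of coordinates and exon lengths. Promoters are from RefSeq.

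Genes were tested with edgeR 4.0.16 in R 4.3.3 (TMM, filterByExpr, quasi-likelihood test, Benjamini-Hochberg adjustment over 15998 genes). Standard errors are the log2 fold change divided by the root of F, and intervals use the fit's degrees of freedom. Log2 CPM have a prior count of 2. Tables and figures were made in Python 3.11.15 with pandas 2.3.3, numpy 2.4.6 and matplotlib 3.10.9. The steps were tested on simulated data. Groups follow the sample titles. No pair of tumors within a group was alike up to counting noise (lowest chi-square of their counts over its degrees of freedom 26.0), so none was merged. The 3-count limit is 0.108 to 0.178 CPM per tumor. No sequencing batch is given. Mitochondrial genes took 1.37 to 4.72% of counts in controls and 1.59 to 6.65% after PFSUV-IMQ.

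The enzymes and the gene lists were chosen with earlier results of these data known. All 10 enzymes are named, with the called genes of each pathway list or else the 2 with the largest log2 fold change in size, and the 3 genes most alike each enzyme. One of the list genes with the largest change is not reported here. Alternatives were upper-quartile normalization and the size factors of DESeq2, no filter and a minimum of 10 counts per tumor, the exact test, glmTreat, DESeq2 1.42.0, no fold limit, a replicate block, a hepatocyte score, a prior count of 0.5 and the mean of the hepatocyte markers in place of Alb, and each tumor left out. Leaving out the 2 tumors of highest Alb together was chosen after seeing the data.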

Additional observations from a re-analysis of the deposited data

Results flagged for a closer look

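In 22 groups of 4 tumors (the 10 enzymes and Alb in each treatment), the highest and lowest values were checked with Dixon's criterion on log2 CPM, and 3 groups had a tumor far from the others. All were PFSUV-IMQ tumor 2, which had 542 CPM of Arg1 against 112 to 128 CPM in the other 3, 695 CPM of Ass1 against 158 to 166 CPM, and 22736 CPM of Alb against 4259 to 5479 CPM. Chance alone would mark about 1 group in 20. The 3 values are not independent, since they come from the same tumor and Arg1 and Ass1 followed Alb. Without this tumor the log2 fold change was -0.97 for Arg1 and -0.86 for Ass1, neither of them called.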

How the results depend on the processing

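Of the 4 enzymes that rose, Ido1 was called under every alternative, and Nos2, Acod1 and Gch1 were called under both other normalizations, both filters, the exact test, DESeq2, no fold limit, the hepatocyte score and without the 2 tumors of highest Alb. With glmTreat 1 enzyme was called higher, and 119 genes higher and 1 lower. DESeq2 called 572 genes higher and 114 lower, and genes called lower were 63 with no filter, 92 with the exact test and 278 with the hepatocyte score. Pathway genes called higher were 2 with no filter, with the exact test, with DESeq2 and with no fold limit, and 1 with the hepatocyte score, which also called 1 lower. With 1 tumor left out, 197 to 375 genes were called higher and 8 to 38 lower, 1 to 4 enzymes higher and 0 lower, and 0 to 1 pathway genes higher. Of the enzymes that were not called, Arg2 stayed above 0 under every alternative and the other 5 changed sign under some. Ass1 was at -0.056 with upper-quartile normalization, at -0.059 without the 2 tumors of highest Alb, and at -0.21 with the hepatocyte score. With 1 tumor left out, log2 fold changes ranged from -0.97 to 0.41 for Arg1, -0.86 to 0.84 for Ass1, -1.52 to 0.46 for Tdo2, -1.24 to 0.73 for Kynu and -0.19 to 1.06 for Ido2, and the r of Arg2 with Alb from -0.70 to 0.39. Numbers 1, 3 and 4 are shared by the groups. Deviations of same-numbered tumors correlated at 0.29, -0.27 and -0.32, and no tumor correlated best with its own number. These values show no pairing by number, but so few shared numbers cannot settle whether the tumors were paired. With a replicate block, in which control tumor 5 and PFSUV-IMQ tumor 2 have no partner, 267 genes were called lower, the 2 enzymes called lower were Arg1 (-1.19) and Tdo2 (-1.61), Gch1 (0.92) fell within the fold limit, Ass1 and Ido2 were at -0.84 and -0.26, and 2 pathway genes were called higher and 6 lower. The cause of these changes was not tested. Among the enzymes, depth limited Arg2 most, at 11 to 31 counts.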
